A study of Larimichthys polyactis and Larimichthys crocea with 36 samples.

Results

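Large yellow croaker (Larimichthys crocea, LC) and small yellow croaker (Larimichthys polyactis, LP) are closely related marine fish that can be crossed in both directions. A set of 49 transcripts was listed in large yellow croaker and at or near 0 in small yellow croaker. An identifier (ID) belonged to it when its FPKM (sequenced fragments, corrected for the transcript's length and the library's depth) was at least 2 in all 3 LC libraries of at least 1 tissue and at most 0.1 in all 9 LP libraries. Members were thus selected on measured FPKM in LC and LP. These 49 were 0.337% of the 14554 IDs that reached that LC level, and the table lists 24212 IDs in all. RNA sequencing had been done on brain, liver and muscle of LP, LC and their hybrids, labelled LPC and LCP, as 12 groups of 3 libraries. The labels name no treatment, and they do not give the age and sex of the fish, which species was the mother of each hybrid and whether animals were pooled. Nothing in the labels ties each library to its own fish, so the p-values rest on a spread among libraries that may be technical.

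A hybrid fish carries a set of chromosomes from each parental species. A transcript that only one species produces can be produced in the hybrid from that species' copy, lost, or changed in level by the regulators that the other species contributes. A transcript can also be listed in one species only because its sequence differs between species and reads of the other species find no place on it, and FPKM does not separate these cases. Whether a hybrid carries such a transcript, in which tissue and at what level relative to the parent, is the question that the hybrid libraries address here, and those libraries had no part in choosing the members. In tissue samples, fewer cells of a type and less RNA per cell cannot be told apart.

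The label "found only in large yellow croaker" applies to the parental species by the rule, and it did not apply to the hybrids. Of the 49 members, 41 were listed at 0 in all 9 LP libraries, and the other 8 had values up to 0.1 in some of them. In the hybrids, 48 of the 49 rose above 0.1 FPKM in at least 1 of the 18 libraries. Of the 14554 IDs at the LC level, 14553 had some hybrid value above 0, and their share above 0.1 in at least 1 library was not counted. The values in LC and LP chose the members, so they are given as a description with no test. At the LP limit, BGI_novel_G001419 (highest LP value 0.10) and BGI_novel_G000509 (0.08) lay just inside, and BGI_novel_G002248 (0.11) and BGI_novel_G000454 (0.13) just outside. At the LC limit, BGI_novel_G001418 and evm.model.Chr13.62 lay just inside, with lowest LC values of 2.21 and 2.22 in their best tissue, and BGI_novel_G002732 and BGI_novel_G000724 just outside, with 1.90 and 1.73.

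Most members were IDs without a chromosome number. The prefix BGI_novel was carried by 33 of the 49 members (67.3%), against 2782 of all 24212 IDs (11.5%) and 866 of the 14554 that reached the LC level (5.95%). The other 16 members start with evm.model (EVM IDs) and carry 12 different chromosome numbers, with at most 2 members on any of them. The IDs come without gene names in the files, so no function is given, no sequence is shown, and the tissue labels could not be checked against marker genes. No 2 EVM members had consecutive numbers within a chromosome. Of the 25 EVM IDs in the table whose number lies directly before or after that of a member, 0 were members, 18 reached the LC level in a tissue and 17 reached an FPKM of 2 in all 3 LP libraries of a tissue. Among the BGI_novel members 4 pairs had consecutive numbers. One pair, BGI_novel_G000354 and BGI_novel_G000355, had identical values in all 36 libraries, so the 49 members held 48 distinct profiles. Over the whole table, 247 IDs with some value above 0 had values identical to those of another ID. Whether shared reads gave the identical values was not tested.

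Members were most numerous in brain and least numerous in muscle, as were all IDs at the LC level. In LC, 41 members reached the level in 1 tissue only: 23 were brain, 12 liver and 6 muscle IDs. The other 8 did so in several tissues: 5 in brain and liver, 1 in brain and muscle, 1 in liver and muscle, and BGI_novel_G002127 in all 3. There were thus 30 brain members, 19 liver members and 9 muscle members, as they are called from here on. Their LC means ran from 2.63 to 33.4 FPKM in brain (median 10.5), from 3.27 to 256 in liver (median 38.5) and from 3.69 to 19802 in muscle (median 59.9). Among members, those of brain thus had the lowest median, and the most abundant ones lay in muscle and liver. Their levels were not compared with those of all IDs. The members together took 0.0603% to 0.0799% of the FPKM sum of LC brain libraries, 0.0881% to 0.133% of LC liver libraries and 2.06% to 3.87% of LC muscle libraries. Most of the muscle share was BGI_novel_G002583.

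**Figure D1:**
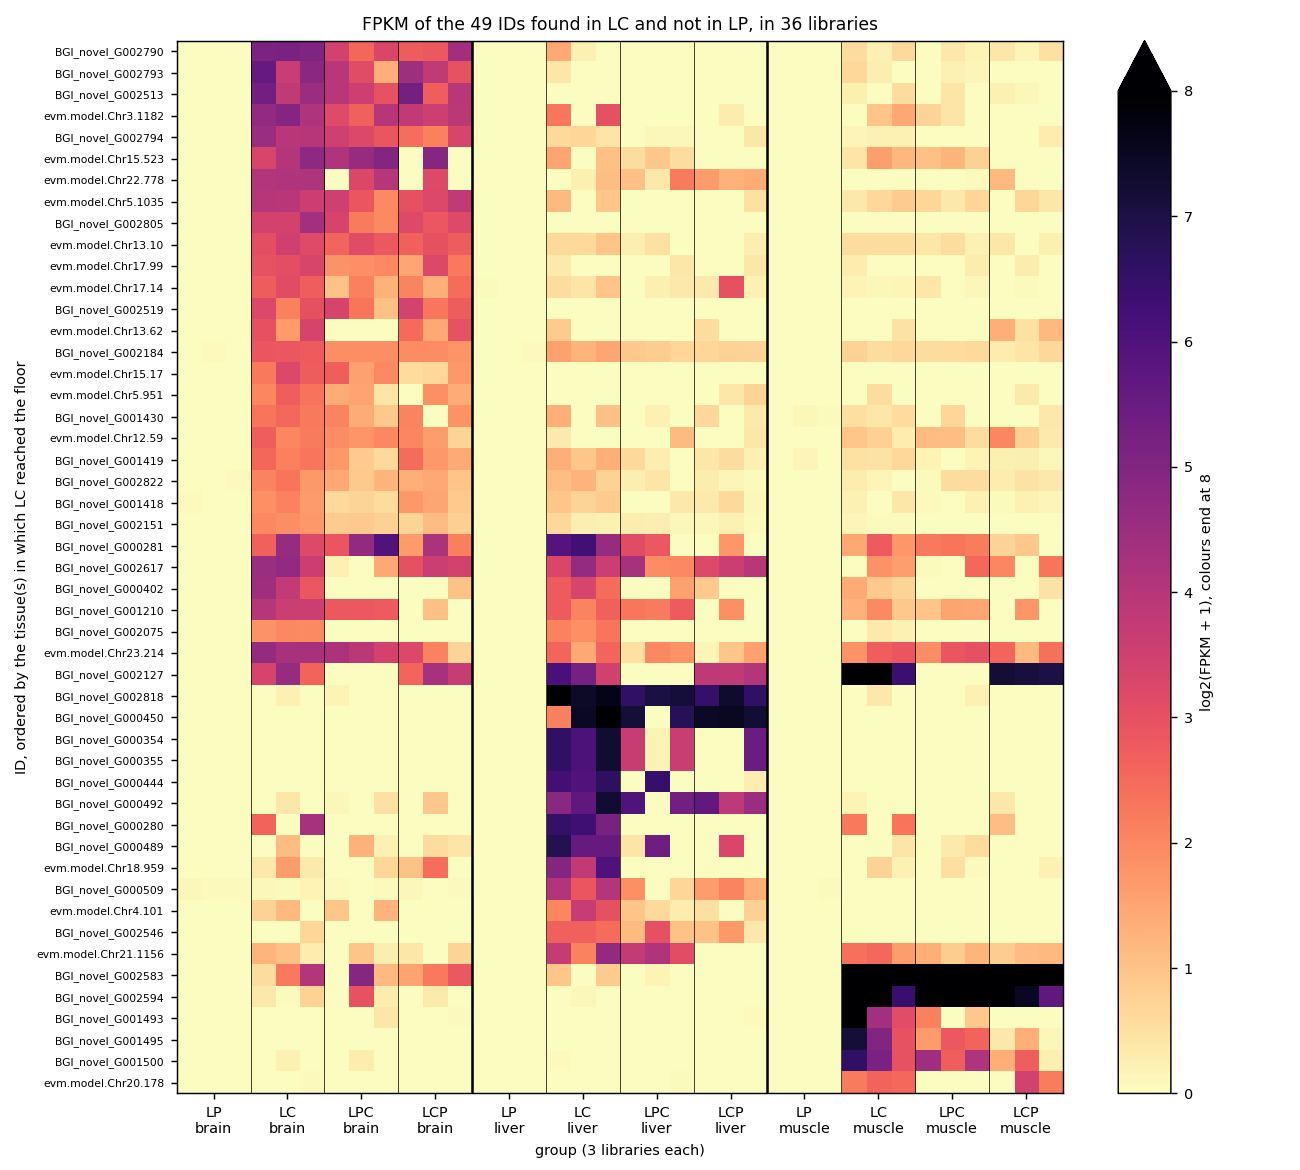
FPKM of the 49 members (rows, ordered by the tissues in which LC reached the level) in the 36 libraries (columns, 3 per group), on a log2(FPKM + 1) colour scale that ends at 8. The LP columns are empty by the rule, the brain, liver and muscle blocks of LC are filled, and most of the same cells of LPC and LCP are filled more lightly.

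Across the whole series, FPKM sums ranged from 492062 to 1029194 per library, and the number of fragments is unknown. Brain libraries listed 15122 to 17177 IDs at 1 FPKM or more, liver libraries 9437 to 11839 and muscle libraries 7179 to 10645. The median Spearman correlation of a library with the others of its group, across all IDs, was 0.905 to 0.946 for brain libraries, 0.911 to 0.933 for liver libraries and 0.904 to 0.955 for muscle libraries.

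Brain members were mostly present in both hybrids, at a part of the LC level. Of the 30 brain members, 20 were above 0.1 FPKM in all 6 hybrid brain libraries, 9 in some of them and 1 in none. Among all IDs that reached the LC level in brain, 99.2% were above 0.1 in all 6. The single libraries had 25 to 26 of the 30 above 0.1 in LPC and 24 to 27 in LCP. The ratio of the hybrid's mean to the LC mean had a median of 0.411 over the 30 members in LPC (SD of the medians of the 3 libraries 0.119) and of 0.477 in LCP (SD 0.0338). Over all 12820 IDs at the LC level these medians were 1.03 and 1.001. In LPC 20 of the 30 ratios lay between 0.25 and 0.75, in LCP 21 did, and 15 members lay there in both hybrids. Of all IDs at the LC level, 14.1% lay in that range in LPC and 13.5% in LCP. All 6 hybrid libraries lay below all 3 LC libraries for 16 brain members, against 2.5% of all IDs at the LC level, and all 6 lay above for 0 members, against 2.46%. The LC values used here also chose the members, so these counts are a description.

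The 3 brain members with the highest LC means show the range. BGI_novel_G002790 had 33.42, 34.49 and 32.41 FPKM in the LC brain libraries, 9.79, 4.86 and 8.81 in LPC, and 5.63, 6.15 and 19.78 in LCP. All 6 hybrid libraries lay below the lowest LC library. BGI_novel_G002793 had 45.88, 11.40 and 27.66 in LC, 14.19, 7.85 and 1.56 in LPC, and 20.71, 12.92 and 6.67 in LCP. Its LC libraries spread widely and both hybrids overlapped them. BGI_novel_G002513 had 38.21, 12.95 and 22.12 in LC, 14.61, 10.70 and 6.82 in LPC, and 37.43, 5.52 and 14.41 in LCP, again with overlap. The steadiest of the brain members, singled out after its values were seen, was BGI_novel_G002184. It had 6.46, 6.31 and 5.75 in LC, 2.71, 2.73 and 2.72 in LPC, and 2.80, 2.81 and 2.37 in LCP.

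**Figure D2:**
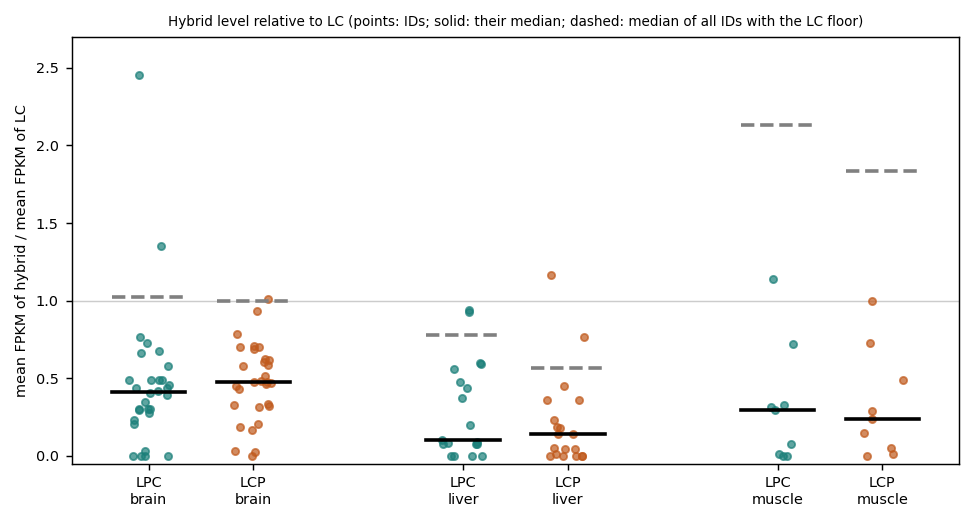
Ratio of the mean FPKM of a hybrid to that of LC, for each member in each tissue in which LC reached the level (points: 30 in brain, 19 in liver, 9 in muscle), with the median of the members (solid) and of all IDs at the LC level (dashed). The members' medians lie between 0.101 and 0.477, below the dashed median in each of the 6 columns. All ratios use FPKM as deposited, without scaling between libraries.

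In liver, most members were listed in some hybrid libraries and not in others. Of the 19 liver members, 3 were above 0.1 FPKM in all 6 hybrid liver libraries, 13 in some and 3 in none, while 98.4% of all IDs at the LC level in liver were above 0.1 in all 6. Without the second LPC liver library the count of 3 became 6. LPC libraries had 11 to 13 of the 19 above 0.1 and LCP libraries 9 to 11. The median ratio to LC was 0.101 in LPC (SD of the library medians 0.0702) and 0.139 in LCP (SD 0.0300), against 0.780 and 0.569 over all 7460 IDs at the LC level in liver. The SDs are those of medians from single libraries and are not a spread around these values. The LPC median was the ratio of BGI_novel_G000402, with LPC liver values of 0, 0 and 1.95. The LCP median was the ratio of BGI_novel_G000354 and BGI_novel_G000355, which have identical values, with 0, 0 and 43.20 in LCP liver. Each median thus rested on 1 library. The LCP median moved with the library left out, to 0.0641 without the third LCP library, 0.0772 without the second and 0.184 without the first. A ratio under 0.25 was found for 11 members in LPC (3.49% of all IDs at the LC level) and 14 in LCP (5.87%). All 6 hybrid libraries lay below all 3 LC libraries for 11 of the 19, where 27% of all IDs at the LC level did so, and above them for 0, where 1.45% did.

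BGI_novel_G002818, the liver member with the highest LC mean, was among the 3 that were above 0.1 throughout. It had 401.34, 165.25 and 200.28 FPKM in the LC liver libraries, 95.40, 131.25 and 140.90 in LPC, and 88.90, 159.04 and 97.46 in LCP. The hybrids lay below LC in every library and overlapped each other. BGI_novel_G000450 had 3.34, 174.43 and 249.57 in LC, 144.04, 0 and 108.10 in LPC, and 169.49, 179.69 and 149.60 in LCP. The first LC library and the second LPC library stood far below the others. The pair with identical values, BGI_novel_G000354 and BGI_novel_G000355, had 94.09, 65.21 and 152.26 in LC, 11.78, 0.13 and 11.43 in LPC, and 0, 0 and 43.20 in LCP. In LCP the signal was therefore in 1 library of 3. BGI_novel_G000450, BGI_novel_G000354 and BGI_novel_G000355 were listed at 0 in every LC and hybrid library of brain and muscle. A single library also held nearly all hybrid signal of BGI_novel_G000444, singled out after its values were seen, which had 74.77, 62.74 and 99.48 in LC, 0, 88.90 and 0 in LPC, and 0, 0 and 0.20 in LCP.

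The 1 member at 0 in all 18 hybrid libraries was BGI_novel_G002075. Its LC values were 2.50, 2.95 and 2.91 FPKM in brain and 3.24, 2.64 and 3.92 in liver. It was a low transcript in LC, close to the limit of 2, with a mean of 2.79 in brain. The brain members with lower LC means were BGI_novel_G002151 (2.63) and BGI_novel_G001418 (2.67). They had 0.62 to 1.15 and 0.48 to 2.27 FPKM in the hybrid brain libraries. Depth is unknown, and why BGI_novel_G002075 was not listed in the hybrids was not tested.

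**Figure D3:**
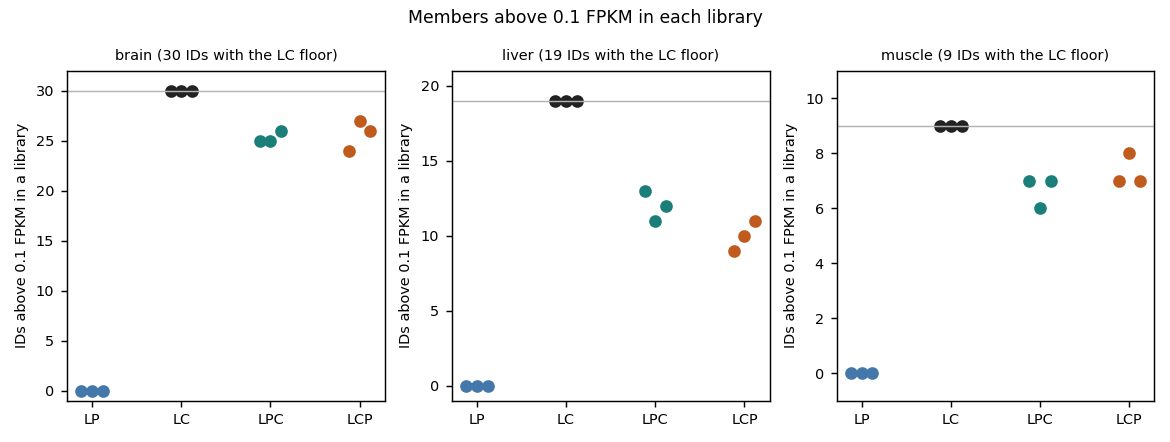
Number of members above 0.1 FPKM in each library, for the 30 brain, 19 liver and 9 muscle members, with 1 point per library and a line at the full number. LC points sit on the line and LP points at 0 by the rule, and the hybrids lie at 24 to 27 (brain), 9 to 13 (liver) and 6 to 8 (muscle).

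In muscle, 5 of the 9 members were above 0.1 FPKM in all 6 hybrid libraries, 4 in some and 0 in none, against 99.2% above in all 6 among all IDs at the LC level. The median ratio to LC was 0.296 in LPC (SD of the library medians 0.152) and 0.240 in LCP (SD 0.131). Over all 3908 IDs at the LC level in muscle the hybrids' listed FPKM stood above LC, with medians of 2.13 and 1.84. FPKM is relative to the rest of a library. The 10 most abundant muscle IDs outside the set summed to 361577 to 409880 FPKM in LC muscle libraries and 209998 to 281243 in the hybrids. Their part in these medians was not tested. After median-ratio scaling, which sets the libraries of a tissue to a common level, the medians over members were 0.136 in LPC and 0.129 in LCP. The scaled medians over all IDs were not computed. With the median of the 3 libraries in place of the mean, the LCP value was 0.115. Without scaling, all 6 hybrid libraries lay below all 3 LC libraries for 4 of the 9, where 3.66% of all IDs did. They lay above them for 0, where 51.4% did. The LC libraries of the muscle members themselves differed widely: the highest was over 5 times the lowest for 5 of 9 members, against 3.89% of all IDs at the LC level. The same held for 5 of 19 liver members (4.22% of all IDs) and 0 of 30 brain members (2.55%).

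The most abundant member was BGI_novel_G002583. It had 27823.8, 15274.7 and 16306.4 FPKM in the LC muscle libraries, 10171.7, 3257.38 and 4183.76 in LPC, and 1869.31, 702.15 and 11683.3 in LCP. All hybrid libraries lay below LC, and the third LCP library stood apart from the other 2. BGI_novel_G002594 had 1664.62, 2219.24 and 84.32 in LC muscle, 1221.12, 807.51 and 838.70 in LPC, and 361.58, 176.93 and 50.46 in LCP. The LCP libraries lay below all LPC libraries, while the third LC library lay among the low LCP values. Traces of both were listed in brain, where BGI_novel_G002583 had 0.45, 3.70 and 15.64 in LC, 0, 29.21 and 1.24 in LPC and 1.84, 3.70 and 6.15 in LCP. In the second LPC brain library, the highest of these, the 10 most abundant other muscle IDs summed to 999.6 FPKM, against 8.49 to 224.5 in the other LC and hybrid brain libraries and 11.3 to 666 in LP brain. The part of muscle RNA in that value was not tested.

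The muscle members BGI_novel_G001493, BGI_novel_G001495 and BGI_novel_G001500, with nearby numbers, shared a pattern in LC, described after their values were seen. BGI_novel_G001493 had 409.05, 19.68 and 7.65 FPKM, BGI_novel_G001495 had 141.69, 31.22 and 6.80, and BGI_novel_G001500 had 93.98, 35.26 and 6.70 in the LC muscle libraries. In each the first LC library was the highest and the third the lowest. BGI_novel_G001493 fell to 3.31, 0 and 0.88 in LPC and was listed at 0 in LCP muscle. BGI_novel_G001500 had 20.96, 5.51 and 16.67 in LPC and 1.59, 5.58 and 0.17 in LCP.

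The tissue of highest level was mostly the same in LC and the hybrids, for members about as often as for all IDs. Of the 48 members with any hybrid signal, 43 (89.6%) had their highest hybrid mean in the tissue of their highest LC mean, against 87.1% of the 14553 IDs at the LC level with hybrid signal. By the tissue of the LC maximum these were 25 of 27 for brain (91.9% of all such IDs), 11 of 14 for liver (64.9%) and 7 of 7 for muscle (91.6%). Tissues were compared over the 18 hybrid libraries with limma on log2(FPKM + 1), adjusted over all 18590 IDs that reached 1 FPKM in at least 3 of these libraries, with calls made below an adjusted p of 0.05. Of the 49 members, 39 entered, many of them only through libraries of the tissue in which they were then called higher. The counts of members that follow therefore depend on the filter and are a description. In brain against liver, 23 members were higher in brain (background 76.6% of all IDs tested), 9 higher in liver (10%) and 7 not called, with a median log2 difference of 1.06 against 1.61 over all IDs. In brain against muscle, 22 were higher in brain (75.8%), 6 higher in muscle (9.47%) and 11 not called, with medians of 0.85 and 1.49. In liver against muscle, 9 were higher in liver (25.4%), 6 higher in muscle (26.8%) and 24 not called. Over all IDs, too, most calls were higher in brain. Median-ratio scaling of the 18 libraries brought the median over all IDs from 1.61 to 0.16 in brain against liver. In brain against muscle it went from 1.49 to 0.18. With this scaling 34 members entered, among 17610 IDs. In brain against liver, 12 members were higher in brain (7268 of all IDs tested) and 10 in liver (5408). In brain against muscle, 12 were higher in brain (7273) and 7 in muscle (5384).

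The calls were also split by the tissue of the LC maximum, beside the same split over all IDs at the LC level. Of the 24 tested members with the LC maximum in brain, 21 were higher in hybrid brain than in hybrid liver (87.5%, against 96.7% of all such IDs), and 21 higher than in hybrid muscle (against 88.4%). With median-ratio scaling 12 of 20 were higher in each of these comparisons, against 57.5% and 55.6% of all such IDs. Of the 10 with the LC maximum in liver, 8 were higher in hybrid liver than in hybrid brain (against 53.7%), and 8 higher than in hybrid muscle (against 76.2%). With scaling 8 of 9 were higher in each, against 93.7% and 79%. All 5 with the LC maximum in muscle were higher in hybrid muscle than in hybrid brain (against 86.0%) and in hybrid liver (against 96.0%), also with scaling. The differences between members and all IDs were not tested. Many members passed the filter only through the tissue in which they were called higher. Examples are BGI_novel_G002805 and BGI_novel_G002519 in brain, BGI_novel_G000450 in liver and BGI_novel_G001495 in muscle. These counts therefore depend on the filter and are a description. The extremes were BGI_novel_G002513, higher in brain than in liver by 3.73 on the log2 scale (SE 0.30, limma adjusted p = 7.18e-09) and than in muscle by 3.61 (SE 0.30, limma adjusted p = 1.16e-08), BGI_novel_G002818, higher in liver than in muscle by 6.83 (SE 0.15, limma adjusted p = 7.27e-16), and BGI_novel_G002583. For the last, liver minus muscle was -11.78 (SE 0.72, limma adjusted p = 5.77e-10) and brain minus muscle -9.70 (SE 0.72, limma adjusted p = 2.56e-09). Brain minus liver was -6.84 for BGI_novel_G002818 (SE 0.15, limma adjusted p = 5.23e-16). BGI_novel_G002513 entered these tests only through brain libraries and BGI_novel_G002818 only through liver libraries. The fit pools the spread over all groups, and groups at or near 0 have little, so these SEs and p-values understate the uncertainty. Between brain and liver, 2 members were called against the tissue of their LC maximum, BGI_novel_G000281 and BGI_novel_G002617, both singled out after their values were seen. The first was 1 of 10 tested with the maximum in liver, against 15.1% of all such IDs. The second was 1 of 24 with the maximum in brain, against 0.332%. With median-ratio scaling, 0 of 9 (0.118% of all such IDs) and 1 of 20 (14.9%) were called so. For BGI_novel_G000281 the LC values were 58.65, 76.77 and 23.36 FPKM in liver and 5.38, 23.49 and 8.26 in brain. In the hybrids liver had 7.77, 6.15 and 0 in LPC and 0, 2.33 and 0 in LCP, while brain had 6.47, 24.32 and 60.38 in LPC and 2.16, 17.61 and 3.45 in LCP. It was called higher in hybrid brain than in hybrid liver by 2.30 (SE 0.61, limma adjusted p = 0.00215). BGI_novel_G002617 had 22.56, 25.24 and 11.07 FPKM in LC brain and 8.89, 23.89 and 11.04 in LC liver, which overlapped. In the hybrids brain had 0.16, 0 and 1.73 in LPC and 6.86, 11.03 and 9.74 in LCP, and liver had 18.67, 2.83 and 2.96 in LPC and 8.18, 11.28 and 14.21 in LCP. Brain minus liver was -1.22 (SE 0.53, limma adjusted p = 0.0412).

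**Figure D4:**
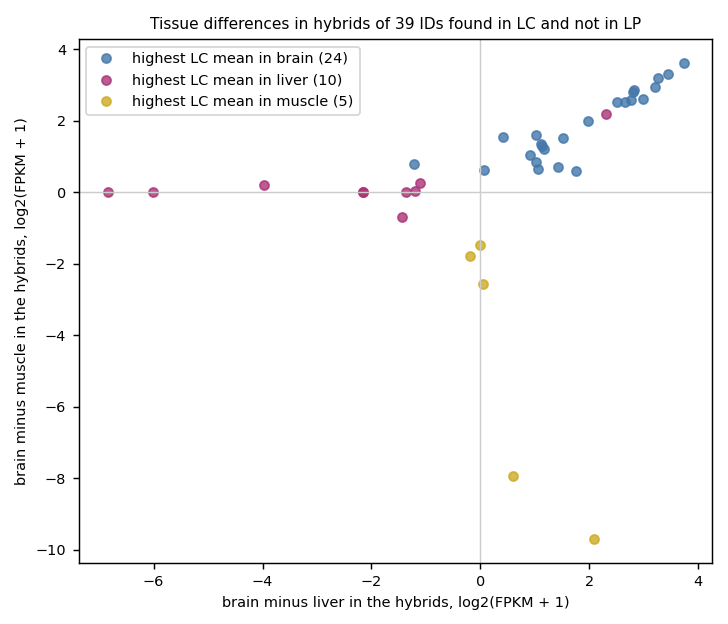
Log2 differences on the log2(FPKM + 1) scale between tissues over 18 hybrid libraries, brain minus liver (horizontal) and brain minus muscle (vertical), for the 39 members tested, coloured by the tissue of their highest LC mean. Most of the 24 brain points lie at the upper right, 9 of the 10 liver points to the left with BGI_novel_G000281 to the right, and the 5 muscle points below 0 on the vertical axis.

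Few members were called between the 2 hybrids, and 22 members in brain, 35 in liver and 38 in muscle were not tested. A member not called or not tested can still differ. LPC was compared with LCP in the 6 hybrid libraries of each tissue with limma, over all IDs at 1 FPKM or more in at least 3 of the 6. In brain 27 members entered and 0 were called in either direction (background 0.00596% of 16767 IDs higher and 0% lower in LPC), with 6 at an unadjusted p under 0.05, and no other tool was run. In liver 14 entered, 1 was higher in LPC (0.351% of 10529 IDs), 1 lower (0.076%) and 12 not called. In muscle 11 entered, 1 was higher in LPC (3.73% of 9825 IDs), 1 lower (0.336%) and 9 not called. Each member called in liver or muscle had entered only through the libraries of the hybrid in which it was higher. The member counts therefore depend on the filter and are a description. These backgrounds moved with the scaling and with single libraries. With median-ratio scaling, 24 IDs were higher and 20 lower in LPC liver, in place of 37 and 8, and 127 higher and 177 lower in LPC muscle, in place of 366 and 33. Without 1 library, 7 to 26 IDs were higher in LPC liver and 55 to 1331 in LPC muscle, the lowest without LCP liver 1 and LPC muscle 3 and the highest without LPC liver 1 and LCP muscle 3. The members entered had a median log2 difference of -0.17 in brain (0.08 over all IDs tested), 0.32 in liver (0.36) and 0.74 in muscle (0.34). Whether LPC minus LCP itself differed between tissues was tested over the 18 hybrid libraries, after the data were seen. It was called different for 1 member between brain and liver (background 0.274% of 18590 IDs), 1 between brain and muscle (0.382%) and 2 between liver and muscle (0.387%). All of these were evm.model.Chr21.1156 or BGI_novel_G002127. Both have hybrid groups at 0, so these calls are a description.

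BGI_novel_G002127, the only member at the LC level in all 3 tissues, was present in LCP and listed at 0 in all 9 LPC libraries. In muscle it had 328.27, 425.68 and 82.13 FPKM in LC and 145.94, 133.71 and 126.64 in LCP, and LPC was lower (limma adjusted p = 4.42e-06). In liver it had 68.22, 37.05 and 10.18 in LC and 13.35, 13.00 and 15.47 in LCP, and LPC was lower (limma adjusted p = 3.74e-04). In brain it had 9.28, 23.39 and 5.14 in LC and 4.91, 18.60 and 11.84 in LCP, with LPC again at 0, and the difference was not called (limma adjusted p = 0.214). In muscle and liver the LCP libraries lay close together, well within the wide range of LC. This ID entered the tests only through its LCP libraries. Its LPC libraries, all at 0, had no spread, so the p-values understate the uncertainty. Of all 24212 IDs, this was the only 1 at 0 in all 9 LPC and above 0 in all 9 LCP libraries, and 3 IDs showed the reverse. Within the members, 3 were at 0 in all LPC and above 0 in some LCP library, and 0 were at 0 in all LCP and above 0 in some LPC library. Of these 3, BGI_novel_G000280, singled out after its values were seen, was above 0 in only 1 LCP library (muscle, 1.13 FPKM). The share of all IDs was not counted for this weaker criterion.

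evm.model.Chr21.1156 was present in LPC liver and listed at 0 in LCP liver. Its liver values were 12.12, 3.25 and 24.26 FPKM in LC, 12.42, 16.70 and 7.52 in LPC, and 0 in all 3 LCP libraries, with LPC called higher (limma adjusted p = 0.00338). LPC overlapped LC, and LCP lay below every LC and LPC liver library, at 0 like LP. In liver the ID entered only through its LPC libraries. The LCP values of 0 had no spread, so this p-value understates the uncertainty. In muscle it had 4.21, 4.77 and 2.09 in LC, 1.54, 0.77 and 1.33 in LPC and 0.77, 1.17 and 1.25 in LCP, where the hybrids overlapped and were not called (log2 difference 0.09, SE 0.19, limma adjusted p = 0.763).

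BGI_novel_G000281 was higher in LPC than in LCP muscle, with 3.71, 3.87 and 3.51 FPKM against 0.63, 0.88 and 0, and 1.75, 5.87 and 2.34 in LC (log2 difference 1.69, SE 0.25, limma adjusted p = 0.016). The call was lost with median-ratio scaling (limma adjusted p = 0.0524), a pseudocount of 0.1 (limma adjusted p = 0.074) and no filter (limma adjusted p = 0.058). It was also lost without the second or the third LPC muscle library (limma adjusted p = 0.0682 and 0.0641). Over its 11 alternatives the adjusted p ran from 0.0163 to 0.074. In muscle BGI_novel_G000281 entered the test only through its LPC libraries, the group in which it was called higher. It reached the LC level in brain and liver and is not a muscle member. The muscle members that follow had all LPC libraries close to or above the highest LCP library without being called: BGI_novel_G001495 (limma adjusted p = 0.0501), BGI_novel_G002594 (limma adjusted p = 0.0558) and BGI_novel_G001500 (limma adjusted p = 0.0772).

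**Figure D5:**
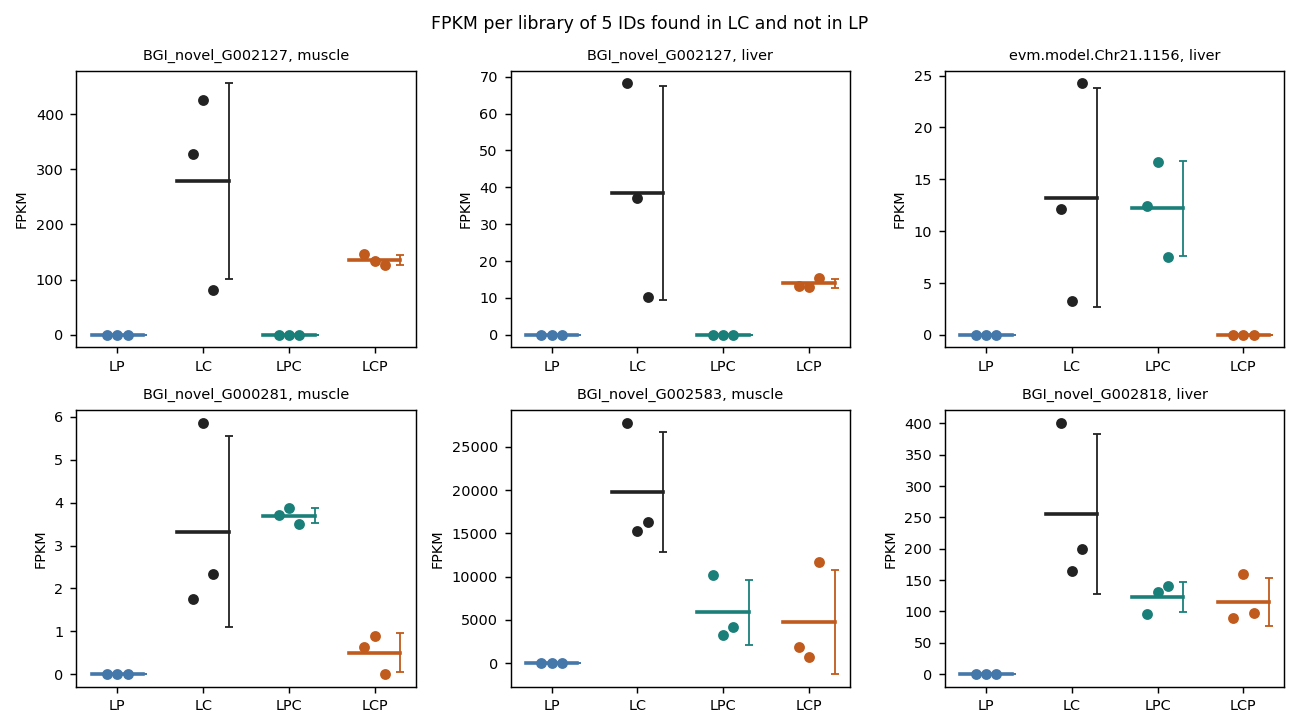
FPKM per library (points), mean (line) and SD of 3 libraries (bar) of 5 members in LP, LC, LPC and LCP. BGI_novel_G002127 is at 0 in LPC, evm.model.Chr21.1156 is at 0 in LCP liver, BGI_novel_G000281 is higher in LPC than in LCP muscle, and BGI_novel_G002583 and BGI_novel_G002818 are present in both hybrids below LC.

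The reverse set, IDs at 2 FPKM or more in all 3 LP libraries of a tissue and at most 0.1 in all 9 LC libraries, had 51 IDs, of which 45 (88.2%) were BGI_novel. In muscle, 12 of its 14 IDs were above 0.1 in all 6 hybrid libraries, with median ratios to LP of 0.547 in LPC and 0.568 in LCP, against 0.296 and 0.240 to LC for the muscle members. In liver, 14 of its 26 IDs were above 0.1 in all 6, against 3 of 19, with median ratios of 0.278 and 0.151, against 0.101 and 0.139. In brain, 7 of 19 were, against 20 of 30, with median ratios of 0.376 and 0.246, against 0.411 and 0.477. These differences were not tested.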

How the data were processed

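Brain, liver and muscle mRNA of 2 species and both hybrids was sequenced in 36 libraries. The values are FPKM as deposited by the authors. Reads passed through fastp, per the submitters' processing notes. For the aligner, quantifier, genome build and annotation, the labels used here name nothing. All value columns were mapped by name. To look for the step that 1 fragment makes, low values were compared between libraries of a tissue, where the fullest bin of log2 ratios held 5.12% to 16.2% of IDs. Whole fragments were not recovered, depth stays unknown and no count test was run.

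The members follow a fixed rule, and members and lists were chosen with earlier results of these data known. Log2(FPKM + 1) values were tested with limma 3.58.1 (R 4.3.3), with a mean-variance trend, 2-sided p and Benjamini-Hochberg adjustment over all IDs at 1 FPKM or more in at least 3 hybrid libraries, called under 0.05. LP and LC libraries stayed out of these fits, because LP libraries of members have no spread by choice. Hybrid groups in which a member is at or near 0 stayed in, and their small spread lowers its SE. The scale understates changes of low values. The code was tested on simulated data with 200 changed IDs per comparison. Differences between tissues in LPC minus LCP, and tissue calls split by LC maximum over all IDs, were added after the data were seen. IDs were named by these rules: the 3 highest LC means per tissue, the member at the level in all tissues, members at 0 in all hybrids, the extremes called in each comparison (2 each way for LPC minus LCP, 1 each way between tissues) and the IDs nearest each limit; others are marked as singled out or described after their values were seen.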

Additional observations from a re-analysis of the deposited data

Results flagged for a closer look

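The difference between LPC and LCP was itself called different between tissues for 2 members, by limma's test of that difference over the 18 hybrid libraries. The test was added after the data were seen. Between 0.274% and 0.387% of the 18590 IDs tested were called in each pair of tissues. For evm.model.Chr21.1156, LPC minus LCP in brain less that in liver was -3.61 on the log2(FPKM + 1) scale (SE 0.41, limma adjusted p = 4.50e-04), and liver less muscle was 3.57 (SE 0.41, limma adjusted p = 3.87e-04). For BGI_novel_G002127, brain less muscle was 3.58 (SE 0.41, limma adjusted p = 5.51e-04) and liver less muscle 3.19 (SE 0.41, limma adjusted p = 0.00157). BGI_novel_G002127 was listed at 0 in LPC in every tissue, so these last values follow its level in LCP, which was highest in muscle. This ID entered the test only through its LCP libraries. In hybrid brain, evm.model.Chr21.1156 had 0, 0.98 and 0.19 FPKM in LPC and 0.32, 0 and 0.62 in LCP. At such low values the scale leaves little room for a difference between the hybrids in brain. The calls are therefore a description. The groups at 0, LPC for BGI_novel_G002127 and LCP liver for evm.model.Chr21.1156, had no spread. The SEs and p-values of both IDs therefore understate the uncertainty.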

How the results depend on the processing

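The size of the set depended on its limits. With an LP limit of 0.5 FPKM it had 93 members (56 brain, 38 liver, 19 muscle), and with an LC limit of 1 it had 81 (49 brain, 31 liver). An LC limit of 5 left 33, with 19 in brain and 12 in liver. Leaving out 1 LC or LP library gave 49 to 61 members, of which 30 to 42 were brain members, 19 to 27 liver members and 9 to 15 muscle members, the 15 without the first LC muscle library. With a limit of 1 FPKM, 13 brain and 3 muscle members were above it in all hybrid libraries. Without 1 hybrid library the counts above 0.1 were 20 to 21 (brain), 3 to 6 (liver) and 5 to 6 (muscle). The median ratio of LCP to LC in liver became 0.212 after scaling and 0 with medians of the 3 libraries, and that of LPC in muscle 0.136 after scaling. Without 1 library, these ratios ran in brain from 0.357 to 0.452 (LPC) and 0.421 to 0.518 (LCP), in liver from 0.0977 to 0.151 and 0.0641 to 0.184, and in muscle from 0.188 to 0.362 and 0.204 to 0.313.

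Members higher in LPC muscle numbered 0 with a pseudocount of 0.1 or scaling, 2 with all 12 muscle libraries in the fit, 3 with the replicate block, and 0 to 3 without 1 library: 0 without LPC 2 or LPC 3, 3 without LCP 2, and 2 without each other hybrid library. With scaling the median over all muscle IDs went from 0.34 to -0.02. In liver 1 to 2 were higher and 1 lower without 1 library (2 without LCP 2), and in brain 0 to 1 higher (1 without LCP 2) and 0 lower. Between tissues, 22 to 23 were higher and 8 to 10 lower in brain than in liver, 20 to 23 and 6 in brain than in muscle, and 7 to 10 and 5 to 7 in liver than in muscle. Scaling left 12 of 34 members tested higher in brain than in liver (7268 of 17610 IDs) and 12 higher than in muscle (7273). A pseudocount of 0.1 gave 10 of 39 lower in liver than in muscle (5707 of 18590 IDs). The causes were not tested. Same-numbered libraries of a cross correlated across tissues at 0.0204 to 0.202 in their deviations, best with their own number in 17 of 18 pairs, a hint that numbers may be shared across tissues. Of these pairs 9 were above 0.1, including all 3 of LCP liver with muscle (0.121, 0.202 and 0.195), so not every pair was, and the labels do not say what a number marks. The main tests over 18 libraries treat libraries as independent, which neither the labels nor these correlations establish. The SEs and p-values printed for these tests come from the fit without the replicate block. With the replicate block in those tests, 23 members were higher and 9 lower in brain than in liver, 23 and 6 in brain than in muscle, and 10 and 7 in liver than in muscle. The block changed no other count of members by over 1.5 times.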

Other observations

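Some members were above 0.1 FPKM in all tissues of 1 LCP library number and at or under 0.1 in all tissues of another. BGI_novel_G001210 was listed at 0 in all tissues of LCP libraries 1 and 3, and had 1.05, 2.66 and 2.38 FPKM in brain, liver and muscle of library 2. In LPC all 9 libraries held it, with brain at 6.14, 6.13 and 5.74, liver at 3.76, 3.62 and 5.86, and muscle at 0.98, 1.85 and 1.78. The LPC and LCP libraries did not overlap in brain or liver, and neither difference was called (limma adjusted p = 0.29 and 0.145). In the LCP hybrid, evm.model.Chr5.951 was at or under 0.1 in all tissues of library 1 and above it in all tissues of library 2. In library 3 it was above 0.1 in 2 tissues. BGI_novel_G001430 was at or under 0.1 in all tissues of LCP library 2 and above it in all tissues of library 3. In library 1 it was above 0.1 in 2 tissues. The share of all IDs with such a pattern was not counted. No member showed such a pattern in LPC. The labels do not say that same-numbered libraries share a fish, and these 3 members were singled out after their values were seen.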
